A study of Capra hircus with 2 samples.

Results

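The E125 ovary of the fetal goat (Capra hircus) held 340 cell barcodes with several counts of follistatin and its companion genes but little anti-Müllerian hormone (AMH), called members here. Droplet single-cell RNA sequencing had been done on ovaries of female goat fetuses at the embryonic stages E125 and E85, with 1 library per stage and no treatment in the labels, and each barcode stands for 1 droplet that should hold 1 cell. How many fetuses went into a library is not stated in the labels. The members were chosen by measured values in the E125 library. They had at least 500 genes detected, a sum of 3 or more unique molecules (UMIs) of FST, HSD17B1, INHA and SYT6 with at least 2 of these 4 genes present, AMH of 1 UMI or less, FIGLA plus DDX4 of 2 or less, and no PECAM1 or KDR. They made up 340 of the 8346 E125 barcodes, a share of 4.07% (exact binomial 95% interval 3.66 to 4.52), in a series of 12743 barcodes. They are set against 3 groups. The first is 199 E125 barcodes that met every other part of the rule but held 2 or more AMH UMIs, called AMH barcodes. The second is all 7160 other E125 barcodes with 500 or more genes and the same limit on FIGLA and DDX4, the AMH barcodes included. The third is 110 E85 barcodes under the same rule. With 1 library per stage no test was possible and none was run, so every difference describes these barcodes, and intervals cover counting error only.

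In the mammalian fetal ovary, pregranulosa cells are the flat somatic cells that enclose single oocytes as germ cell nests break up and primordial follicles form. In follicles that begin to grow, these cells become cuboidal granulosa cells, and AMH is known as a product of granulosa cells of growing follicles. Follistatin (FST) binds and blocks activins, INHA is the alpha subunit of inhibin, and HSD17B1 converts oestrone to oestradiol. SYT6 belongs to the synaptotagmins, a family of membrane-trafficking proteins. FIGLA and DDX4 mark germ cells, and PECAM1 and KDR mark endothelium.

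Of 7645 E125 barcodes with 500 or more genes, 742 reached the sum of 3, and 633 of these had at least 2 of the 4 genes. The germ cell limit left 577, the endothelial limit 539 and the AMH limit 340. The commonest pattern was FST, HSD17B1 and INHA without SYT6, in 90 members, followed by all 4 genes together in 56. AMH was at 0 in 249 members and at 1 UMI in 91. Just outside that limit lay 44 barcodes with 2 AMH UMIs. At the other limit, 28 members had a sum of exactly 3 and 42 barcodes outside had a sum of 2, while 86 more had 3 or more UMIs of 1 gene alone. A barcode needs depth to reach such sums, and the members were deep. Their median was 7862.5 UMIs (range 729 to 65929) and 2137.5 genes, against 10881 UMIs in the AMH barcodes and 3133 in the other E125 barcodes. The E85 barcodes under the rule had a median of 7445.5. Mitochondrial genes held a median of 2.95% of the members' UMIs. None of the 13 barcode sequences found in both libraries belonged to a member.

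The members did not form 1 group when E125 barcodes were clustered without the genes of the rule. The largest share, 176 of 340 (51.8%), lay in a cluster led by SYT6, BMP3 and ATP4B, called the first cluster, which also held 61 AMH barcodes. Another 110 lay in a cluster led by AMH, CYM and CHST8, called the second cluster, which held 119 AMH barcodes. The leading genes of each were read off after clustering, so SYT6 and AMH, which were kept out of it, still differed between the clusters. The remaining 54 members were spread over 8 other clusters. Of these, 23 lay in a cluster led by SOST, NPFFR2 and ASIC2, 10 in one led by the mitosis genes PRR11, TOP2A and ASPM, and 9 in one led by DLK1, ANGPTL5 and IGFBP3. A further 6 lay in a cluster led by CDH19 and SCN7A, and the other 6 were single barcodes or pairs. At resolution 0.5 the first and the second cluster joined, and 84.7% of members lay together. The clusters were chosen and named after the data were seen.

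**Figure D1:**
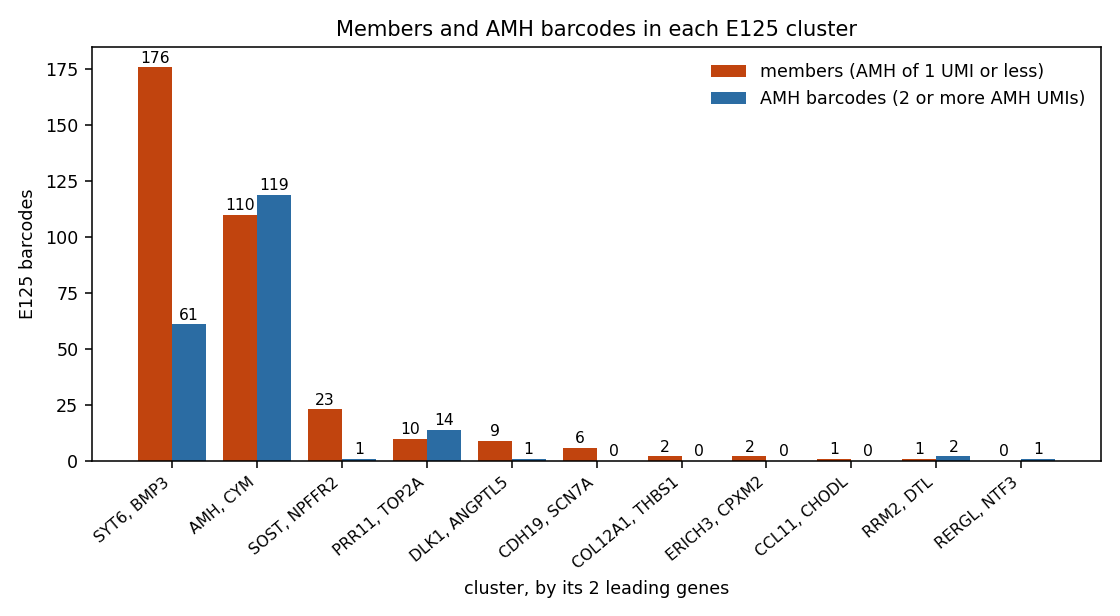
Number of E125 barcodes (y axis) in each cluster that held a member or an AMH barcode (x axis, clusters by their 2 leading genes), with members on the left of each pair and AMH barcodes on the right. The SYT6-led cluster held 176 members and 61 AMH barcodes, the AMH-led cluster 110 and 119, and the SOST-led cluster 23 and 1.

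The genes of the rule differed between the members of the first and the second cluster, in opposite directions. Levels are given in CPM, the summed UMIs of a gene per 1000000 UMIs of the group. SYT6 stood at 294 CPM in first-cluster members and 62.5 CPM in second-cluster members, and a UMI of it was found in 129 of 176 and in 23 of 110. HSD17B1 ran the other way, with 216 CPM in the first cluster and 846 CPM in the second. FST had 729 and 2030 CPM, and its median per barcode was 3 UMIs in first-cluster members and 10 in second-cluster members. INHA had 157 and 295 CPM. AMH, held at 1 UMI or less by the rule, still gave 25.6 CPM in the first cluster and 49.8 CPM in the second. Since the rule requires a sum over these genes, a barcode low in some of them had to be high in others. In the 54 members elsewhere, SYT6 was at 53.9 CPM and FST at 501 CPM.

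**Figure D2:**
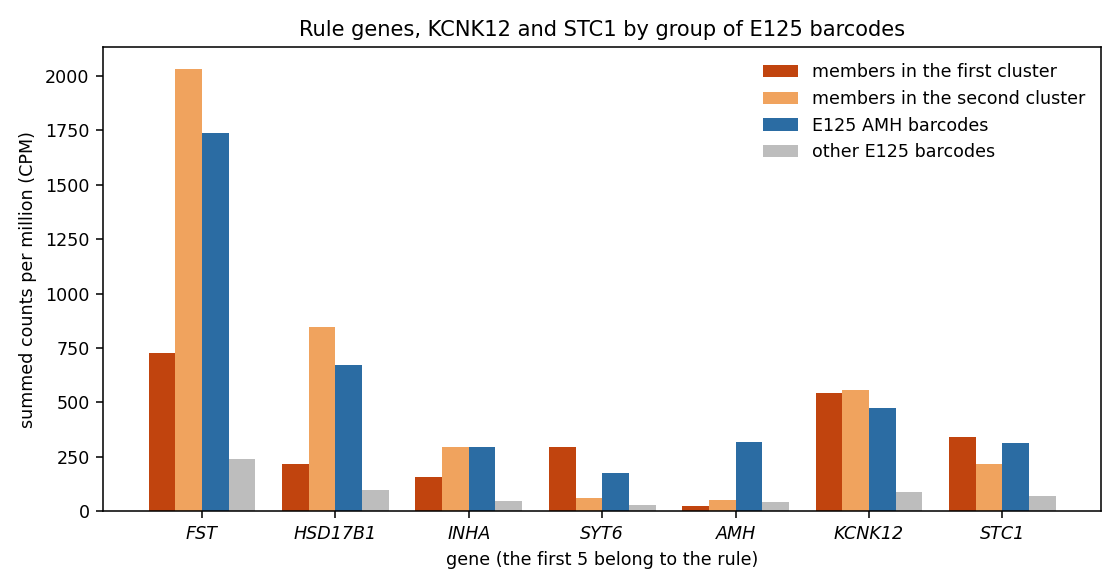
Summed CPM (y axis) of the 5 summed or limited genes of the rule and of KCNK12 and STC1 (x axis) in members of the first cluster, members of the second cluster, AMH barcodes and the other E125 barcodes. SYT6 was highest in first-cluster members (294 CPM), FST and HSD17B1 in second-cluster members (2030 and 846 CPM), while KCNK12 was alike in members of both clusters (544 and 556 CPM).

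KCNK12 and STC1 are markers of the pregranulosa label that the rule did not use. The list that holds them was chosen with earlier results of these data known. Their levels therefore describe the members and cannot test the label. KCNK12 encodes a two-pore domain potassium channel subunit. It was found in 288 of 340 members with a median of 3 UMIs (highest 47), and stood at 484 CPM in members, 476 CPM in AMH barcodes and 89.5 CPM in the other E125 barcodes. After every barcode was thinned to 2000 UMIs, which left out 16 members, it was found in 54.0% of members, 47.4% of AMH barcodes and 4.63% of endothelial barcodes, the last taken as the level that free RNA may give. STC1, the secreted glycoprotein stanniocalcin 1, was patchier. It was found in 156 of 340 members, with a highest count of 73 UMIs, and stood at 258 CPM in members, 315 CPM in AMH barcodes and 69.1 CPM in the others. Thinned, it was seen in 27.2% of members, 30.9% of AMH barcodes and 8.50% of endothelial barcodes. Of the 41 myeloid barcodes left after thinning, 1 (2.44%) held KCNK12 and 1 (2.44%) held STC1. Whether the endothelial level of STC1 came from free RNA was not tested. At the limit itself, KCNK12 stood at 490 CPM in the members with a sum of 3 and at 250 CPM in the barcodes with a sum of 2 just outside. At the AMH limit it stood at 476 CPM in members without AMH, 502 CPM in members with 1 UMI and 523 CPM in the barcodes with 2 UMIs just outside. FOXL2, the usual transcription factor marker of these cells, has no feature under that symbol and was not analysed here.

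Summed stromal and surface epithelium markers were lower in members of the first and second clusters than in the 54 elsewhere. The endothelial and germ cell sums were higher there, but they were mostly EMCN and UCHL1. They do not describe the other markers of these lists. Summed over 11 stromal markers, first-cluster members had 366 CPM, second-cluster members 593 CPM and members elsewhere 1473 CPM, against 165 CPM in AMH barcodes and 5061 CPM in the other E125 barcodes. Of the 54, 27 had 3 or more UMIs over at least 2 stromal markers. Surface epithelium markers summed to 743 CPM in these 54, against 51.8 and 51.0 CPM in members of the first and second cluster and 137 CPM in the other E125 barcodes. Among endothelial markers CDH5, TEK, EGFL7, CLDN5 and ERG were at 0 in all members, and most of their 171 CPM came from EMCN (163 CPM). Of 9 endothelial markers outside the rule, EMCN alone was 2-fold or more higher in members than in the other E125 barcodes, and 8 were lower. The endothelial sum was 237 CPM in first-cluster members and 42.8 CPM in members elsewhere, with second-cluster members between them, against 464 CPM in the other E125 barcodes. CSF1R, C1QB, C1QC, CD163, TYROBP and CD14 of the myeloid list were at 0. The oocyte genes GDF9 and BMP15 were at 0 too. The 10 germ cell markers outside the rule, thus without FIGLA and DDX4, summed to 350 CPM, of which UCHL1 gave 278 CPM. Their sum was 412 CPM in first-cluster members, 325 CPM in second-cluster members and 206 CPM in members elsewhere, against 262 CPM in the other E125 barcodes. Of the members, 28.2% had 3 or more UMIs over at least 2 germ cell markers, against 9.41% of the other E125 barcodes. For perivascular markers these shares were 30.9% (105 of 340 members) and 22.3%, although RGS5 and CSPG4 were at 0 in members and the sum was 437 CPM in members and 715 CPM in the others. Most of the members' perivascular sum came from MYH11, with 878 UMIs in 205 members. Such shares also depend on depth, which was higher in members. All 7 glial markers were at 0 in second-cluster members, and 6 of the 54 members elsewhere passed the glial limit. The part of such barcodes in each comparison was not tested, and values without them are given where they differ. In all, 33 members were among the 468 E125 barcodes with the highest Scrublet doublet scores and 6 had over 20% mitochondrial UMIs, all 6 of them outside both main clusters.

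Against the other E125 barcodes, follicle somatic genes such as FSHR, CYP19A1 and INHBB were 3.50-fold to 7.32-fold higher in members. Among the genes with the highest ratios were CHGA, PCSK1, TFF2 and PCLO, better known from secretory or synaptic cells. These 4 were picked from the top ratios and belong to no common list. In the list of synaptotagmins and exocytosis genes, 1 of 10 measured genes was higher (SYT10, 33.6 CPM in members and 12.1 CPM in the others) and 2 were lower (SYT1 and SNAP25), with a median log2 ratio of -0.54. A gene counted as measured with 50 or more UMIs over both groups, and as higher or lower at 2-fold. Of 11530 measured genes, 537 (4.66%) were higher in members and 1880 (16.3%) were lower, with a median log2 ratio over all of them of -0.14. Since the members were selected on genes of this same contrast, these counts describe the selection and support nothing further. Among genes with at least 50 CPM in either group, the highest ratio was that of CADM2, an immunoglobulin-type adhesion molecule, with 90.7 CPM in members and 14.3 CPM in the others (6.34-fold, 95% counting interval 5.47 to 7.34). It was present in 161 of 340 members, and no single member held more than 3.4% of its UMIs.
 
The 20 genes with the highest ratios among those with at least 50 CPM in either group ran from 6.34-fold down to the 4.09-fold of FHOD3. TFF2, a trefoil factor known from the stomach, had 207 CPM in members and 35.8 CPM in the others, and was found in 202 members. CHGA (chromogranin A, a protein of hormone-storing granules) had 183 and 37.6 CPM. PCSK1, a prohormone-cleaving protease, had 99.1 and 20.6 CPM, and SYCN, known from pancreatic zymogen granules, 162 and 33.5 CPM. ATP4B, the beta subunit of the gastric proton pump, had 77.0 and 14.3 CPM. PCLO, a scaffold of presynaptic terminals, had 290 CPM in members and 59.3 CPM in the others. NTN1, the secreted guidance protein netrin 1, was found in 259 of 340 members, with 259 and 52.2 CPM. SERPINA5, a secreted protease inhibitor, reached 380 and 91.0 CPM. Against the AMH barcodes, where CHGA had 145 CPM and PCLO 305 CPM, 19 of the 20 lay within 2-fold and PAGE4 was 3.13-fold higher in members. PAGE4 was found in 48 of 340 members, and 1 of them held 22.8% of its UMIs. Thinned to 2000 UMIs, CHGA was found in 30.6% of members, 31.4% of AMH barcodes and 1.38% of endothelial barcodes. Of the 20, 18 stayed at 2-fold or more in every alternative. The exceptions, RSPO2 and PAGE4, were not higher once germ cell barcodes were counted among the others, where their log2 ratios were 0.06 and -1.42.

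**Figure D3:**
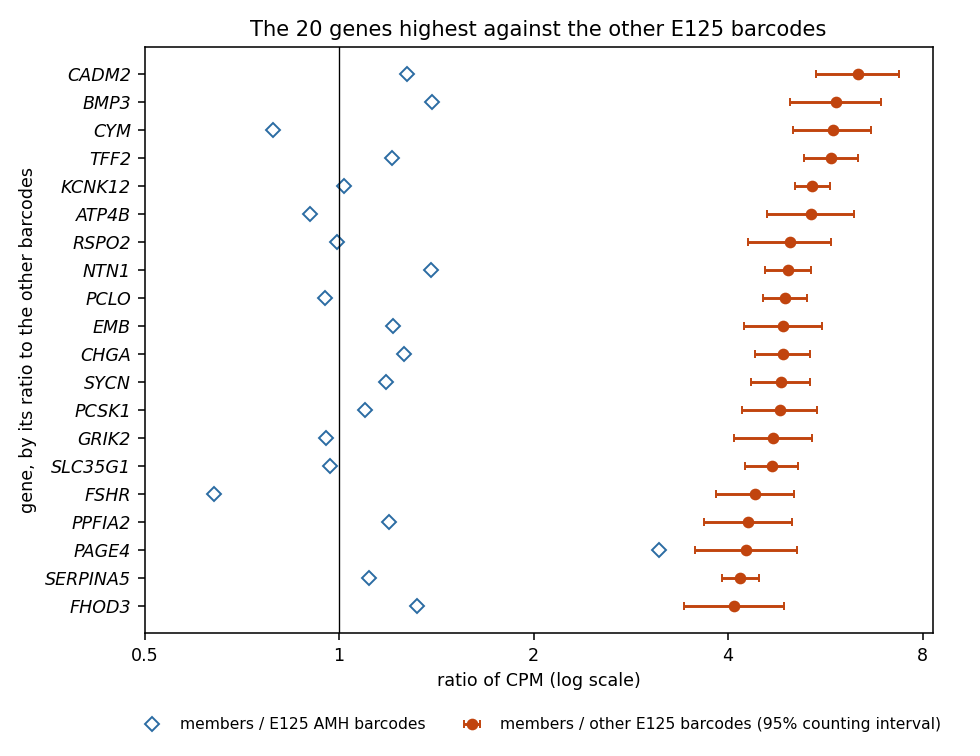
Ratio of CPM on a log2-spaced axis (x) for the 20 genes of at least 50 CPM highest against the other E125 barcodes (y, ranked). Filled points are members over other E125 barcodes with 95% counting intervals, from 6.34 for CADM2 to 4.09 for FHOD3, and open diamonds are members over AMH barcodes, within 2-fold for all but PAGE4 at 3.13.

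Among genes of follicle somatic cells, 5 of the 10 measured markers of growing follicle granulosa were higher in members and 1 was lower (list median log2 ratio 1.39, against -0.14 over all measured genes). FSHR, the receptor for follicle-stimulating hormone, had 87.9 CPM in members and 19.9 CPM in the others (4.41-fold, 3.83 to 5.07). CYP19A1, the aromatase that makes oestrogens, had 42.4 and 5.79 CPM (7.32-fold, 5.85 to 9.14), and it was found in 92 members. INHBB, an activin and inhibin beta subunit, had 104 and 29.7 CPM. The related INHBA was lower, with 27.1 and 61.0 CPM, though within 2-fold once all other E125 barcodes were the reference. AMHR2, the AMH receptor, rested on few counts, with 17 UMIs in members (5.30 CPM) and 1.36 CPM in the others.

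Of 22 measured regulators of supporting cells, 4 were higher and 4 lower (median log2 ratio -0.08). The share of lower genes was thus close to the 16.3% over all measured genes. IRX5, an Iroquois homeobox factor, had 116 CPM in members and 47.9 CPM in the others, and KITLG, the ligand through which follicle cells signal to oocytes, had 185 and 84.6 CPM. KITLG was as common in endothelial barcodes. Thinned, 27.2% of members and 29.3% of endothelial barcodes held a UMI of it. GATA4 was just past the limit at 2.04-fold and dropped below it with AMH at 0 or with a sum of 5 or more. ESR2 had 22 UMIs in members. Lower were NR2F2 (157 CPM in members and 492 CPM in the others), NR0B1 (31.2 and 70.2 CPM), LHX9 (2.49 and 13.3 CPM) and WNT4, with 2 UMIs in all 340 members. WT1, which the gonadal somatic lineage shares, differed little, with 290 CPM in members and 359 CPM in the others. RUNX1 had 0 UMIs in members.

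For the lists that follow, the shares over all measured genes were 4.66% higher and 16.3% lower, with a median log2 ratio of -0.14. In the WNT list, 3 of 18 measured genes were higher and 7 lower (median -0.31). The R-spondins, secreted amplifiers of WNT signalling, were on the higher side, with RSPO2 at 83.2 CPM in members and 16.7 CPM in the others and RSPO3 at 29.9 CPM in members, 2.72-fold higher. The inhibitors SFRP1 and FRZB were lower in every alternative. DKK1 and DKK2, with 1 and 0 UMIs in members, were lower too, but came to 1.54-fold and 1.24-fold in their weakest alternative. Of the TGF-beta genes 7 of 9 measured were lower and none was higher (median -2.21), with TGFB2 at 16.2 CPM in members, 4.63-fold lower. The BMP target genes ID1, ID3 and ID4 were lower as well, ID1 at 173 and 685 CPM. The insulin-like growth factor list had 7 of 12 lower (median -1.54), among them IGF1 (26.2 and 76.2 CPM), and STC1 alone higher. All 11 measured stromal markers were lower, DCN at 241 CPM in members and 1847 CPM in the others. In the list of epithelial adhesion and gap junctions, 2 of 12 measured genes were higher and 2 lower, CLDN1 and CLDN5 (median -0.52). The higher ones were GJA1, the gap junction protein of granulosa cells (178 and 66.6 CPM), and the desmosomal DSP (205 and 50.9 CPM). The 3 measured two-pore potassium channels were all higher, KCNK12 with 1552 UMIs in members, KCNK1 with 55 and KCNK2 with 33. The proliferation list had 7 of 15 lower (median -0.93), but none of the 7 stayed past 2-fold in every alternative, and CDK1 had a log2 ratio of 0.32 with the mean of CPM over barcodes. TOP2A, a mitosis gene, was present in 20 members only and at 2.23 and 12.8 CPM in members of the first and second clusters. Of G1 regulators the inhibitor CDKN1A was higher (59.5 and 22.4 CPM, and 1.89-fold with first-cluster members alone) and CCND1 lower (42.4 and 136 CPM).

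Some list members rested on the barcodes outside the main clusters. LHCGR, the receptor for luteinizing hormone, was 3.95-fold higher in all members than in the others, but stood at 2.23 and 0 CPM in members of the first and second clusters and at 52.3 CPM in those elsewhere. CYP11A1, the enzyme that starts steroid synthesis, had 18.9, 6.38 and 98.2 CPM in the same 3 groups. HEY2, a Notch target, had 6.69, 53.6 and 249 CPM. Without the members elsewhere, the log2 ratio of members to the other barcodes was -0.91 for LHCGR and 0.39 for CYP11A1. So the higher levels of LHCGR and CYP11A1 lay outside both main clusters.

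The lowest named ratios were those of endothelial and blood cell genes. LMO2 had 6 UMIs in members and 259 CPM in the others, VWF 4 UMIs and 122 CPM, and CCL21 27 UMIs and 708 CPM. FLI1 had 0 UMIs in members against 95.5 CPM in the others. With a floor of 3 UMIs over the group this is 102-fold lower, and the counting interval starts at 83.1-fold lower. The rule excluded barcodes with PECAM1 or KDR, so these values are not independent of it. At the top of the members' own levels, GSTM3, a glutathione transferase, was the gene with the clearest gap, at 7731 CPM in members and 1941 CPM in the others (3.98-fold, 3.92 to 4.04). Thinned, it was found in 98.1% of members, 99.0% of AMH barcodes and 30.1% of endothelial barcodes.

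The members of the first cluster and those of the second differed in many further genes. The clusters were built from these same genes, so the values describe the split. Of 4624 measured genes, 184 (3.98%) were higher and 118 (2.55%) lower in first-cluster members. RELN, the secreted matrix protein reelin, had 322 CPM in first-cluster members and 2.55 CPM (2 UMIs) in second-cluster members, a ratio with a counting interval of 34.7 to 1043. BMP3, a member of the BMP family, had 123 and 6.38 CPM, and 94.4% of all its UMIs among members lay in the first cluster. SMOC2, a secreted calcium-binding matrix protein, had 449 and 53.6 CPM, and ALPL, tissue-nonspecific alkaline phosphatase, had 323 and 71.4 CPM. MYCN, a MYC family transcription factor, had 66.9 and 10.2 CPM. From the fixed lists IRX3 was higher in the first cluster (132 and 34.4 CPM), as was the cell cycle inhibitor CDKN1C (362 and 124 CPM).

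In the other direction stood SRGN, the granule proteoglycan serglycin, with 2 UMIs (1.11 CPM) in first-cluster members and 68.9 CPM in second-cluster members. PPARG, a nuclear receptor, had 8.36 and 93.1 CPM, DPYSL3 5.01 and 130 CPM, and the homeobox gene EN1 11.1 and 95.7 CPM. CYM, which encodes the milk-clotting protease chymosin, had 44.6 and 283 CPM. CDH2 (N-cadherin) had 28.4 and 159 CPM. FSHR had 50.1 CPM in the first cluster and 208 CPM in the second (4.15-fold lower in the first, 3.19 to 5.43), and FOXO1 133 and 305 CPM. Not every follicle gene differed. CYP19A1 had 53.5 and 47.2 CPM, KITLG 216 and 203 CPM and GJA1 209 and 218 CPM, each with an interval of the ratio that includes 1. Median depth was 8042 UMIs in first-cluster members and 7211 in second-cluster members.

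**Figure D4:**
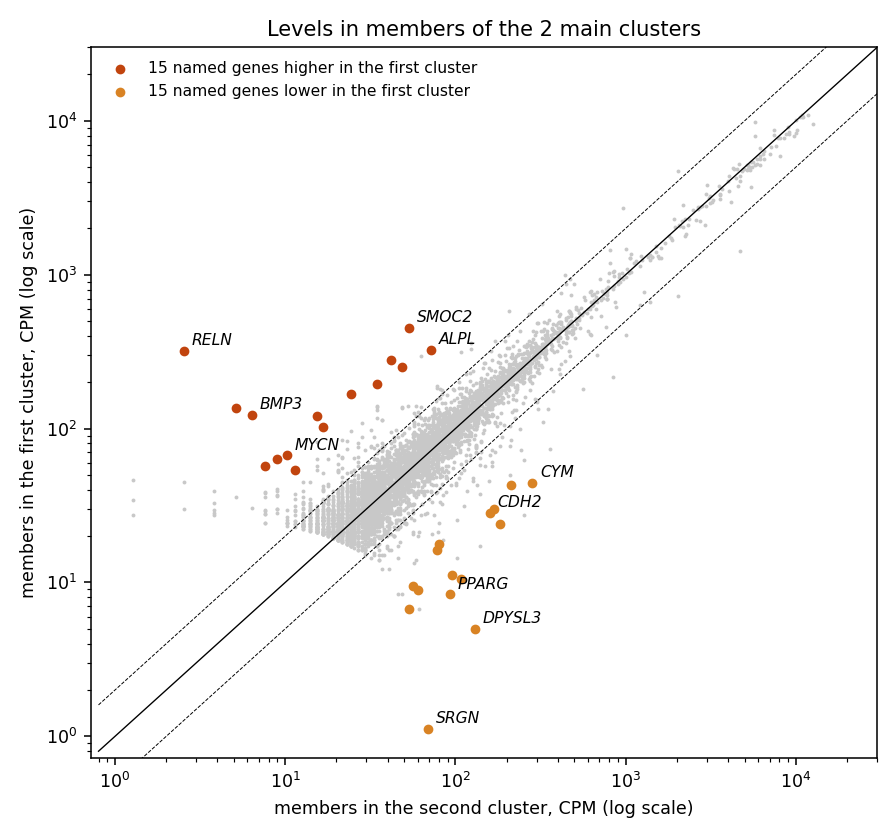
CPM in members of the first cluster (y) against CPM in members of the second cluster (x), both on log scales, for 4624 measured genes, with lines at equality and at 2-fold. The 15 named genes on either side are coloured, with RELN at 322 and 2.55 CPM and SRGN at 1.11 and 68.9 CPM the farthest from the line.

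Members and AMH barcodes of E125 were alike in most genes. Of 6929 measured genes, 227 (3.28%) were higher in members and 41 (0.592%) lower, with a median log2 ratio of 0.13. AMH was part of the rule and had 28.4 CPM in members and 320 CPM in AMH barcodes. Most of the markers of growing follicle granulosa lay within 2-fold, FSHR at 87.9 and 137 CPM, INHBB at 104 and 139 CPM and CYP19A1 at 42.4 and 35.5 CPM. The split between higher and lower depended on scaling and on which members were kept. Higher genes were 84.7% of those past 2-fold, and 63.7% (137 higher and 78 lower) with TMM scaling factors. Under these factors the median over all genes became -0.04. With first-cluster members alone, 159 genes were higher and 162 lower.

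The genes highest against the AMH barcodes were led by markers of other cells. All 8 measured stromal markers were higher, COL1A2 at 100 CPM in members and 18.7 CPM in AMH barcodes and DCN at 241 and 71.5 CPM. All 3 measured keratins were higher too, and 40.1% of the members' KRT7 UMIs came from 1 barcode. NR1H4, the bile acid receptor, had 96.9 and 7.06 CPM, and RDH10, an enzyme of retinal synthesis, had 107 and 16.5 CPM. In members of the first and second clusters, though, NR1H4 stood at 7.24 and 26.8 CPM and RDH10 at 20.1 and 39.5 CPM, against 439 and 437 CPM in the members elsewhere. Of the 10 named genes, COL1A2 and TCF21 alone were 2-fold higher in every alternative. Without the members outside both main clusters, 161 genes were higher and 96 lower.

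Lower in members than in AMH barcodes was LGMN, the lysosomal protease legumain, at 144 CPM in members and 449 CPM in AMH barcodes (3.13-fold lower, 2.82 to 3.47). It was the only one of the 10 named lower genes that stayed past 2-fold in every alternative. The gap was wide in the second cluster, where LGMN had 223 CPM in members and 979 CPM in AMH barcodes, whereas in the first cluster it had 117 and 152 CPM. MKX, a homeobox factor, had 84.2 and 174 CPM in the second cluster and 18.9 and 15.4 CPM in the first. TOP2A, MCM3, CENPE, CENPW and UBE2S, genes of DNA replication and cell division, lay between 1.80-fold and 2.08-fold lower in members. Members outside both main clusters held 94.0% of the members' TOP2A UMIs and 89.2% of their CENPE UMIs. For CENPW, MCM3 and UBE2S these shares were 49.6%, 33.0% and 30.6%. The cluster led by mitosis genes held 10 members and 14 AMH barcodes.

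Members and AMH barcodes were also compared within each main cluster. In the second cluster, 41 of 3963 measured genes (1.03%) were higher in the 110 members than in the 119 AMH barcodes and 58 (1.46%) were lower. AMH itself had 49.8 CPM in members and 682 CPM in AMH barcodes there. HSD17B1 had 846 and 1451 CPM, INHBA 31.9 and 94.0 CPM, and the DNA replication genes MCM3 (23.0 and 86.3 CPM) and HELLS (6.38 and 39.3 CPM) were lower in members. In the first cluster, 243 of 5571 genes (4.36%) were higher in the 176 members than in the 61 AMH barcodes and 17 (0.305%) lower. AMH had 25.6 CPM in those members and 104 CPM in those AMH barcodes. Depth differed there, with a median of 8042 UMIs in members and 30391 UMIs in AMH barcodes, and its part in this contrast was not tested. In the second cluster the medians were 7211 and 9593 UMIs. KCNK12 hardly differed in the first cluster (544 and 543 CPM) and SYT6 had 294 and 253 CPM.

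At E85 the same rule found 110 of 4397 barcodes (2.50%, 2.06 to 3.01), below the 4.07% at E125. No E85 barcode met the rest of the rule with 2 or more AMH UMIs, and 1 AMH UMI was seen in the 110. Stage and library cannot be told apart here. FST had 1002 CPM in members and 260 CPM in the E85 barcodes, HSD17B1 363 and 146 CPM, and SYT6 190 and 195 CPM. These 3 genes selected both groups, so their levels describe the selection. Members of the first and second cluster also differed, with FST at 729 and 2030 CPM and HSD17B1 at 216 and 846 CPM. KCNK12 had 484 CPM in members and 42.4 CPM in the E85 barcodes, where 25 of 110 held a UMI. The other barcodes of the libraries showed much the same ratio for KCNK12, 89.5 CPM at E125 and 8.03 CPM at E85. However, the AMH barcodes held 1954 of the 3156 KCNK12 UMIs of the other E125 barcodes, and the other E85 barcodes include no such group. The ratio without the AMH barcodes was not computed, so a shift of the whole library cannot be read from it. STC1 had 258 and 112 CPM, a 2.31-fold difference that came to 1.69-fold after thinning to 2000 UMIs and was also under 2-fold with members under 20000 UMIs.

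Of 5945 measured genes, 814 (13.7%) were higher in members than in the E85 barcodes under the rule and 411 (6.91%) were lower. The median over all genes was 0.04 on the log2 scale, and 0.15 with TMM factors. All 20 named genes stayed past 2-fold in every alternative. Many of them differed between the libraries at large. TAF10, a subunit of the general transcription factor TFIID, had 318 CPM in members and 11.1 CPM in the E85 barcodes, and its ratio was 24.8-fold in the other barcodes. C4orf48 (172 CPM and 2 UMIs) and LMAN1, a cargo receptor of the secretory pathway (234 and 17.1 CPM), were also as different in the other barcodes, with ratios of 54.2-fold and 13.3-fold. For PCSK1N the ratio in members was the higher. PCSK1N, a secreted inhibitor of PCSK1, had 107 CPM in members and 3.03 CPM in the E85 barcodes (35.2-fold, 11.9 to 172), with a ratio of 8.75-fold in the other barcodes. For CHGA (183 and 11.1 CPM, 16.5-fold, 9.14 to 33.2) and the WNT receptor ligase ZNRF3 (53.9 and 4.03 CPM, 13.4-fold, 5.12 to 49.6), the counting interval included the ratio in the other barcodes, 12.2-fold and 5.81-fold. PCSK1 itself was at 99.1 and 93.8 CPM, without such a difference. The ratios in the other barcodes count the AMH barcodes on the E125 side only, and 152 of these 199 held CHGA. Ratios without the AMH barcodes were not computed, so whether CHGA exceeds the rest of the library is not settled here.

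Lower at E125 were TUBB2B, a tubulin, with 4 UMIs in members and 77.7 CPM in the E85 barcodes, and CCND1, the G1 cyclin, with 42.4 and 247 CPM (5.83-fold lower, 4.71 to 7.25). In the other barcodes CCND1 was 1.30-fold lower at E125. RASL11A had 21.2 and 209 CPM, and was 1.94-fold lower in the others. KRT19 had 27.7 and 179 CPM, and was 4.48-fold lower in the others. Of the members' 89 KRT19 UMIs, 89.9% came from members outside both main clusters and 24.7% from 1 barcode. The pooled KRT19 level thus does not describe members of the main clusters. Among follicle genes FSHR had 87.9 and 74.6 CPM, CYP19A1 42.4 and 66.6 CPM, KITLG 185 and 153 CPM and GATA4 34.0 and 29.3 CPM, all within 2-fold. Of the regulators SOX4 (501 and 62.5 CPM), IRX3 (94.7 and 13.1 CPM), IRX5 (116 and 26.2 CPM) and GATA6 (21.8 and 4.03 CPM) were higher in members, and CTNNB1 (36.4 and 108 CPM) was lower. SOX4 and IRX3 were 8.31-fold and 7.33-fold higher in the other E125 barcodes as well.

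**Figure D5:**
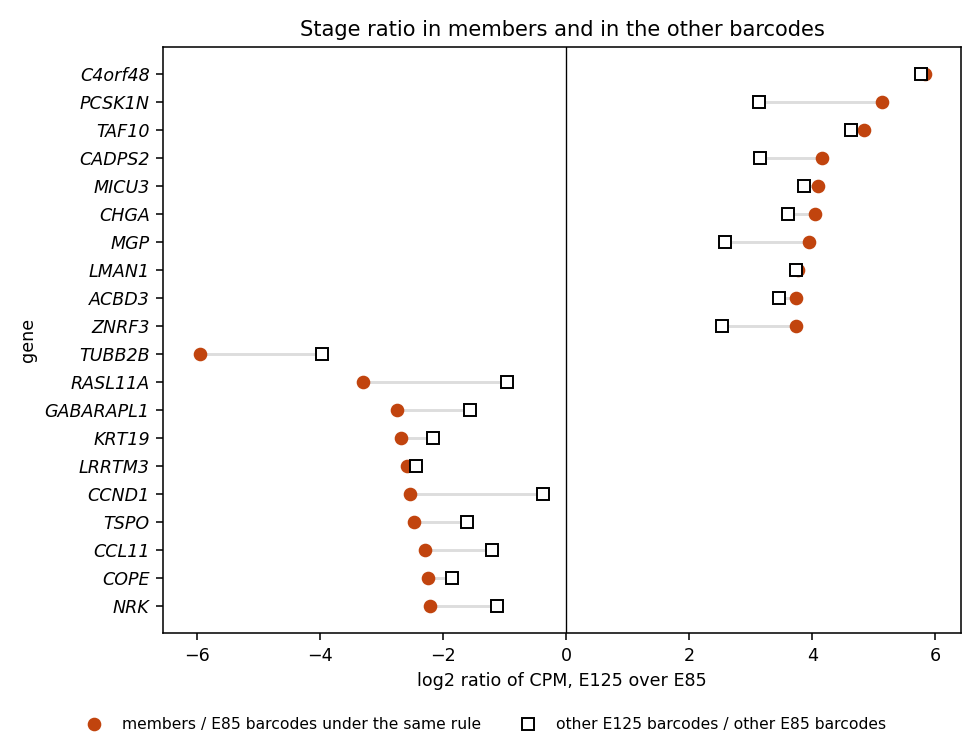
Log2 ratio of CPM, E125 over E85 (x), for the 20 named genes of the stage comparison (y). Filled circles are members over E85 barcodes under the same rule and open squares are the other E125 over the other E85 barcodes. TAF10, C4orf48 and LMAN1 have nearly the same ratio in both, while CCND1, RASL11A and TUBB2B are lower in members than the ratio of the other barcodes.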

How the data were processed

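Per the labels' protocols, tissue was digested to single cells and run on a 10x 3' kit, version 3.1. Their text names testes. Since tissue and sex are labelled ovary and female, the samples are taken as ovary. UMI counts per feature and barcode are as the authors deposited them, unnormalized. Cell Ranger is given as 3.1 in the submitters' processing notes and as 6.0.0 in the headers of the matrices. The build used for alignment is not given in the sources used here. Of 27271 features, 39.1% have no symbol. E125 held 49692252 UMIs over 8346 barcodes and E85 17748948 over 4397.

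From these counts, UMIs were summed per group and divided by the group total (CPM). Ratios set sums under 3 UMIs to 3. Intervals of ratios are exact conditional and those of shares exact binomial (Clopper-Pearson), at 95%, for counting error only. E125 barcodes with 500 or more genes were clustered (scaled to 10000, log, 2000 variable genes without the rule's 9 genes and 13 mitochondrial genes, 30 components, 15 neighbours, Leiden resolution 1, scanpy 1.11.5). Endothelial and myeloid barcodes had 3 or more UMIs over at least 2 markers of that list and none of the other. Scrublet's own threshold did not work at E125, so no doublets were removed, and the top 0.8% of scores per 1000 barcodes were left out as an alternative. TMM factors came from edgeR 4.0.16. Computations were tested on simulated data.

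Named genes had a symbol, 50 CPM in at least 1 group and 50 UMIs over both, and were outside the rule. They are the 20 highest and 10 lowest ratios to the other E125 barcodes, 10 each way for AMH and E85 barcodes, all genes of 24 gene lists and 12 marker lists, and the 10 highest levels. The 15 each way between clusters and within-cluster genes were chosen after their values were seen. The members and lists were chosen with earlier results of these data known. A few genes are not reported here.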

Additional observations from a re-analysis of the deposited data

How the results depend on the processing

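Of 84 alternatives to counts, 60 stayed within 1.5 times the main value, and all 6 other settings of the rule and filters gave 249 to 382 members. Each alternative changed the count as follows where it moved by more. Genes higher than in the other E125 barcodes (537) were 867 with the mean of CPM over barcodes and 297 with a limit of 200 UMIs, and lower genes (1880) were 1200 when thinned to 2000 UMIs, 2983 against all other E125 barcodes and 1201 with 200 UMIs. Genes higher than in AMH barcodes (227) were 355 with mean CPM, 75 thinned, 137 with TMM factors, 545 with 20 UMIs and 41 with 200 UMIs. Genes lower than there (41) were 114 with mean CPM, 162 with first-cluster members alone, 96 without members outside both main clusters, 135 with members under 20000 UMIs, 78 with TMM factors, 123 with 20 UMIs and 11 with 200 UMIs. Genes higher than in the E85 barcodes (814) were 379 thinned, 1232 with 20 UMIs and 318 with 200 UMIs, and lower genes (411) were 151, 816 and 126. The share of members in the fullest cluster was 84.71% at resolution 0.5. Of 874 alternatives for named genes 632 stayed within the counting interval and 2 changed sign: PAGE4 against all other E125 barcodes (log2 ratio -1.42) and HBAI against AMH barcodes with members under 20000 UMIs (0.12). Of 151 list genes past 2-fold against the other E125 barcodes 95 stayed so in every alternative, as did 6 of 26 against AMH barcodes and 40 of 62 against E85. The cause of these moves was not tested beyond the fewer genes or counts that a UMI limit or thinning leaves. The settings that compare within clusters, leave out deep barcodes or leave out members elsewhere were chosen after seeing the data. No paired analysis was possible because each stage has 1 library. With 1 library per stage nothing measures the spread between animals.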

Other observations

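Some fixed lists not described above differed between stages. Of 8 measured nuclear genes of oxidative phosphorylation, 4 were lower in members than in the E85 barcodes under the same rule and none was higher (median log2 ratio -1.01, against 0.04 over all measured genes, of which 6.91% were lower and 13.7% higher). COX8A had 47.4 CPM in members and 170 CPM in the E85 barcodes, and UQCRC1 28.7 and 115 CPM. COX8A was 4.03-fold lower at E125 in the other barcodes too. Against the other E125 barcodes none of the 8 differed by 2-fold. Of 8 measured genes of the dissociation stress list, JUN (535 CPM in members and 94.8 CPM in the E85 barcodes) and DUSP1 (92.5 and 35.3 CPM) were higher, while HSPB1 (757 and 1619 CPM), HSPA8 (309 and 619 CPM) and FOSB (13.1 and 52.5 CPM) were lower. HSPA8 and HSPB1 were close to the limit and came to 1.85-fold and 1.93-fold in their weakest alternatives. JUN was 6.55-fold higher at E125 in the other barcodes. The insulin-like growth factor list had 4 of 8 measured genes higher in members than at E85 (13.7% over all measured genes), among them IGFBP2, a binding protein of these factors, with 874 and 157 CPM, which was 7.31-fold higher in the other barcodes. IGFBP2 had 405 CPM in first-cluster members, 1000.2 CPM in second-cluster members and 2052 CPM in members elsewhere. GAS6, the ligand of TYRO3 family receptors, had 50.5 CPM in members and 5.04 CPM in the E85 barcodes.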
